A study of Mus musculus with 163 samples.

Results

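Growing oocytes (GROs) obtained through germ cell specification in vitro were compared with GROs whose germ cells had been specified in the embryo, across all genes, using every iPSC-derived and every gonad-derived GRO of the series. These were 47 of 163 single oocytes, 23 derived from BVSC-iPSCs and 24 derived from gonads of E12.5 embryos (E, day of embryonic development). In the iPSC-derived group, female induced pluripotent stem cells of 1 line, reprogrammed from tail tip fibroblasts and carrying the Blimp1-Venus and Stella-ECFP reporters, were differentiated into primordial germ cell-like cells (PGCLCs). Cells positive for both reporters were sorted and aggregated with E12.5 female gonadal somatic cells of outbred Swiss Webster embryos, from which the endogenous primordial germ cells (PGCs) had been depleted, to form reconstituted ovaries (rOvaries). In the gonad-derived group, rOvaries were formed from all dissociated E12.5 female gonadal cells, PGCs included, and the strain of these gonads was not stated separately. Both kinds of rOvary then followed a similar in vitro differentiation (IVD) protocol, and the groups differ in the origin of the germ cells and in their genotype. Whether they shared culture runs or library batches is not given, so these cannot be told apart from the group. Origin and genotype cannot be told apart, because the PGCLCs came from a single line. Depletion of endogenous PGCs may be incomplete, so oocytes of gonadal origin could occur in rOvaries made with PGCLCs. The groups also differ in the sorting of the germ cells and in how the ratio of germ cells to somatic cells was set. In vivo GROs (24 oocytes) served as a reference, and fully grown oocytes (FGOs) of both sources (24 and 24 oocytes) as a later stage. The study reports that GROs of both cultured groups were larger than the in vivo GROs, whose age the labels do not give. Oocyte size was not taken into account here. Each oocyte was freed of follicular cells and of its zona before lysis. Each oocyte was sequenced as its own library.

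In mammals, PGCs arise from epiblast cells that respond to signals of neighbouring tissues and switch on BLIMP1 (encoded by Prdm1), followed by STELLA (encoded by Dppa3). After colonizing the gonad, female PGCs enter meiosis, arrest in prophase and are enclosed in follicles, in which oocytes grow while accumulating the mRNAs used by the early embryo. In this phase oocytes rely on the surrounding granulosa cells for pyruvate, amino acids and cholesterol, and use glucose poorly by themselves. STELLA protects the methylation state of the maternal genome and is deposited in the egg as a maternal factor.

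Levels are given as CPM, the counts of a gene per 1000000 reads assigned to genes. Libraries held between 5.64 and 13.7 M reads (M, 1000000) in iPSC-derived GROs (median 6.99) and between 4.57 and 8.70 M reads in gonad-derived GROs (median 6.66). iPSC-derived oocyte 20 was the deepest, with 13.7 M reads. A median of 11227 genes exceeded 1 CPM in an iPSC-derived GRO and 11134.5 in a gonad-derived GRO. No pair of libraries was identical. The labels name no embryo, culture or rOvary behind an oocyte, so each group counted as 1 sample and no test between the groups was possible. Differences are therefore given as sizes with the value range over oocytes, and the exact Poisson 95% intervals beside pooled levels cover counting error only. A level of 3 reads over a whole group, taken as the floor, corresponds to 0.0182 CPM in iPSC-derived and 0.0191 CPM in gonad-derived GROs.

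All libraries had the markers of oocytes. The summed level of the 17 oocyte markers in the table ranged from 53320 to 84298 CPM in iPSC-derived oocytes and from 57490 to 83357 CPM in gonad-derived ones. Gdf9, which encodes an oocyte-secreted growth factor, stood at 11285 against 11175 CPM, and Nobox, a transcription factor of growing oocytes, at 1442 against 1214 CPM. The summed level of 12 granulosa cell markers was 20.9 to 104 CPM in iPSC-derived oocytes and 28.8 to 105 CPM in gonad-derived ones, and none of the 10 members tested differed 2-fold. Most of that sum came from Cyp19a1, Nr5a2 and Kitl, while Amh, which defines granulosa cells of growing follicles, was at 0.109 and 0.0637 CPM. Markers of blood cells summed to 2.19 to 27.4 against 0.532 to 10.4 CPM, nearly all from Cd68. Markers of the endothelium summed to 71.5 to 170 against 60.5 to 160 CPM, mostly from Pecam1 (94.2 against 101 CPM) and Tek (13.5 against 17.2 CPM, with 115 CPM in 1 gonad-derived oocyte), and the endothelial cadherin Cdh5 had 0 reads in both groups.

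Most genes differed little between the groups. The log2 ratio of pooled levels, iPSC-derived over gonad-derived, each with 0.5 CPM added, had a median of -0.0046 over 13422 genes with more than 1 CPM in at least 3 of the 71 GROs, and the added 0.5 CPM makes the ratio of low genes smaller than their true ratio. In iPSC-derived GROs, 45 genes (0.335% of those tested) were higher and 30 genes (0.224%) lower by 4-fold or more. At the smaller limit of 2-fold, 266 genes (1.98%) were higher and 235 genes (1.75%) lower. The number depended on the filter, as given in the last section, and on the added constant. With 0.1 CPM in its place 92 and 56 genes passed 4-fold, and with 2 CPM 18 and 17 genes did. Closest to the 4-fold limit on the higher side were Epdr1 (log2 ratio 2.01) just inside and Cd59a (1.99) just outside, and on the lower side Tuba3b (-2.03) just inside and Iqca1l (-1.997) just outside.

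Single oocytes were separated by origin in almost every case. The correlation of log2 levels had a median of 0.971 between iPSC-derived GROs, 0.970 between gonad-derived GROs and 0.961 between oocytes of different groups. All 23 iPSC-derived GROs and 23 of 24 gonad-derived GROs had their highest median correlation with oocytes of their own group. The exception, gonad-derived oocyte 6, was closer to the iPSC-derived group by this measure. It had 0 CPM of Spesp1 and Sis, 0.146 CPM of Manba and 31.4 CPM of Gsto2, as other gonad-derived oocytes did. Its 1.31 CPM of Fmo6 and 0 CPM of Slc39a8 lie within the iPSC-derived range, as do those of some gonad-derived oocytes that were closest to their own group.

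**Figure D1:**
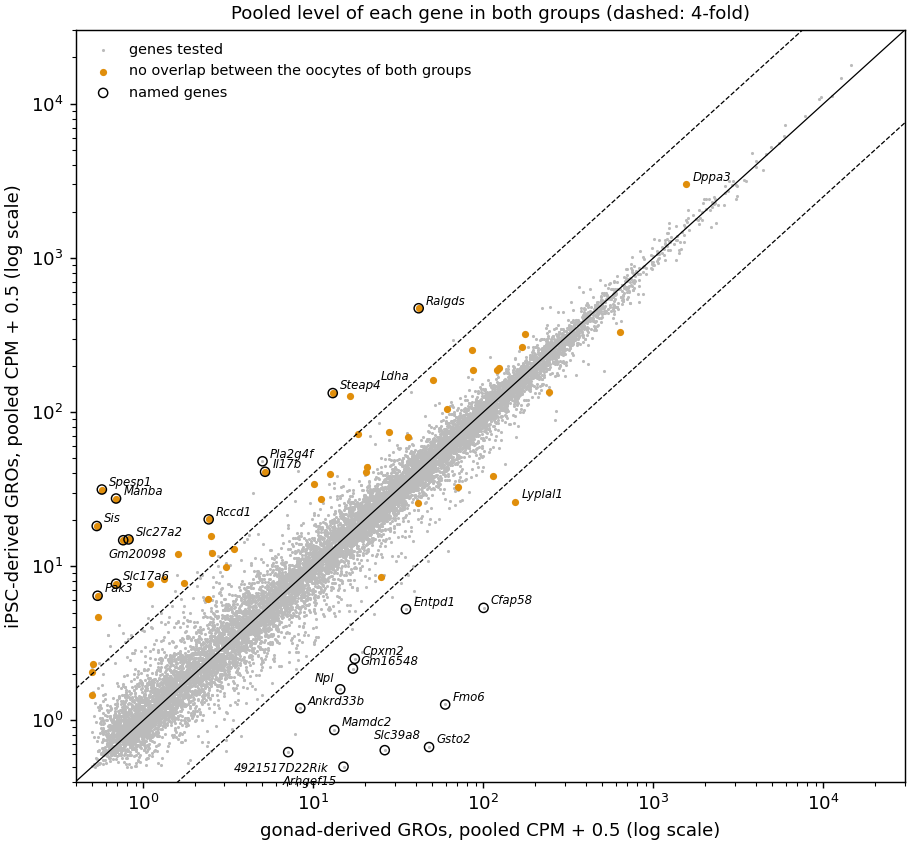
Pooled level of each of the 13422 genes tested in gonad-derived GROs (x axis) and iPSC-derived GROs (y axis), in CPM + 0.5 on log axes. Dashed lines mark 4-fold, orange points the 49 genes whose oocytes do not overlap between the groups, and open circles the 24 named genes. Most genes lie along the diagonal, and the orange points lie mainly above it.

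Genes higher in iPSC-derived GROs were, at the top, of the kind that gonad-derived GROs nearly lacked. Spesp1 (chr9:62270729-62282179), which encodes a protein of the sperm equatorial segment, was at 30.9 CPM in iPSC-derived GROs (95% interval 30.1 to 31.8) and 0.0700 CPM in gonad-derived GROs (0.0350 to 0.1253). Its lowest, median and highest iPSC-derived oocytes had 10.7, 20.3 and 92.1 CPM, and no gonad-derived oocyte exceeded 0.573 CPM. The highest value belonged to the deep oocyte 20, and leaving out single oocytes moved the log2 ratio of 5.78 only between 5.50 and 5.83. In vivo GROs had 0.0247 CPM from 4 reads, and so resembled the gonad-derived oocytes.

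Manba (chr3:135485611-135571404), encoding the lysosomal beta-mannosidase, was at 26.98 CPM (18.2 to 35.3 over oocytes, median 26.6) against 0.191 CPM (0 to 0.871). The variation between iPSC-derived oocytes was small, and the lowest of them was far above the highest gonad-derived oocyte. Sis (chr3:72888557-72967863), encoding the intestinal sucrase-isomaltase, was at 17.7 CPM (7.91 to 28.8) against 0.0318 CPM (0 to 0.501), the latter from 5 reads.

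Slc27a2, a fatty acid transporter and very long chain acyl-CoA synthetase, was at 14.4 CPM (2.04 to 25.9) against 0.318 CPM (0 to 1.16). Pla2g4f, a cytosolic phospholipase A2, was at 47.4 CPM (17.4 to 78.5) against 4.52 CPM (0.583 to 19.4), and 1 gonad-derived oocyte reached into the iPSC-derived range. Steap4, a metalloreductase, was at 132 CPM (64.4 to 216) against 12.498 CPM (0 to 45.3). Slc17a6, the vesicular glutamate transporter VGLUT2 of neurons, was at 7.19 CPM (2.95 to 16.0) against 0.191 CPM (0 to 1.11). In these genes the gonad-derived oocytes lay at or near zero, except for Steap4 and Pla2g4f, in which they spread widely.

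Signalling genes included the most abundant one. Ralgds (chr2:28513089-28553082), a guanine nucleotide exchange factor for RAL GTPases, was at 471 CPM (273 to 610) against 41.1 CPM (20.4 to 52.4), a log2 ratio of 3.50. In vivo GROs had 55.7 CPM (29.2 to 85.4), again below every iPSC-derived oocyte. Il17b, a cytokine of the interleukin-17 family, was at 40.5 CPM (15.3 to 58.1) against 4.70 CPM (1.31 to 8.60). The X-linked Pak3, a p21-activated kinase, was at 5.93 CPM (2.95 to 10.2) against 0.0382 CPM (0 to 0.258). The remaining named genes were Rccd1 at 19.6 against 1.92 CPM and the predicted gene Gm20098 at 14.2 against 0.261 CPM. Rccd1 overlaps Prc1 on the opposite strand, and whether the counting used strand is not stated, so its reads cannot be assigned with certainty.

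Genes lower in iPSC-derived GROs behaved differently, since the gonad-derived oocytes themselves varied. Gsto2 (chr19:47865438-47886308), a glutathione S-transferase of the omega class, was at 0.170 CPM in iPSC-derived GROs (0 to 0.577) and 47.4 CPM in gonad-derived GROs (lowest 0.174, median 54.9, highest 75.3). The log2 ratio was -6.16. In 21 of 24 gonad-derived oocytes Gsto2 was above the highest iPSC-derived oocyte, and the others lay within the iPSC-derived range. Gsto2 overlaps Cfap43 on the opposite strand.

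Fmo6, a flavin-containing monooxygenase, was at 0.766 CPM (0 to 3.29) against 59.1 CPM (0.292 to 133). Slc39a8, which encodes the zinc and manganese transporter ZIP8, was at 0.140 CPM (0 to 0.756) against 25.8 CPM (0 to 144), and its median in gonad-derived oocytes was 15.6 CPM. Both genes thus ranged from near zero to high levels among gonad-derived oocytes. Arhgef15, a guanine nucleotide exchange factor known from endothelial cells, had 0 reads in all 23 iPSC-derived GROs and 14.5 CPM in gonad-derived GROs (0 to 32.3). Its level in gonad-derived GROs was 797-fold the floor of 3 reads over the iPSC-derived group. This ratio depends on the floor chosen and is not a lower limit that allows for counting error. Gonad-derived oocytes without Arhgef15 also occurred.

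Cfap58, a component of cilia and flagella, was at 4.86 CPM (1.65 to 10.4) against 99.7 CPM (3.31 to 147). The matrix-associated Mamdc2 was at 0.365 against 12.8 CPM, and Npl, the lyase that degrades sialic acid, at 1.09 against 13.9 CPM. Entpd1, the ectonucleotidase CD39, was at 4.76 (1.49 to 18.9) against 34.5 CPM (2.44 to 93.4). Further down were 4921517D22Rik at 0.122 against 6.61 CPM and the non-coding Gm16548 at 1.67 against 16.6 CPM. Gm16548 overlaps the genes Selp and F5 on the other strand. In none of the 12 named genes on this side were the groups free of overlap, and between 14 and 21 of 24 gonad-derived oocytes lay above the highest iPSC-derived oocyte.

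Cpxm2 and Ankrd33b differed from the other lower genes in their in vivo level. Cpxm2, a carboxypeptidase-like secreted protein, was at 2.01 CPM in iPSC-derived GROs (0.143 to 9.51), 17.0 CPM in gonad-derived GROs (6.82 to 26.7) and 12.7 CPM in vivo (1.65 to 24.8). Ankrd33b, an ankyrin repeat protein, was at 0.699 (0 to 2.99), 7.88 (0 to 26.1) and 6.97 CPM (1.98 to 21.4) in the same order. Cpxm2 lies within the annotated span of Fgfr2 on the same strand, so its reads are uncertain. By pooled level the iPSC-derived group was below both other groups for these genes, although the oocytes overlapped, while for Gsto2 (0.142 CPM in vivo), Fmo6 (0.531 CPM), Slc39a8 (0.0927 CPM) and Arhgef15 (0.0124 CPM from 2 reads) the gonad-derived group was above both others.

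**Figure D2:**
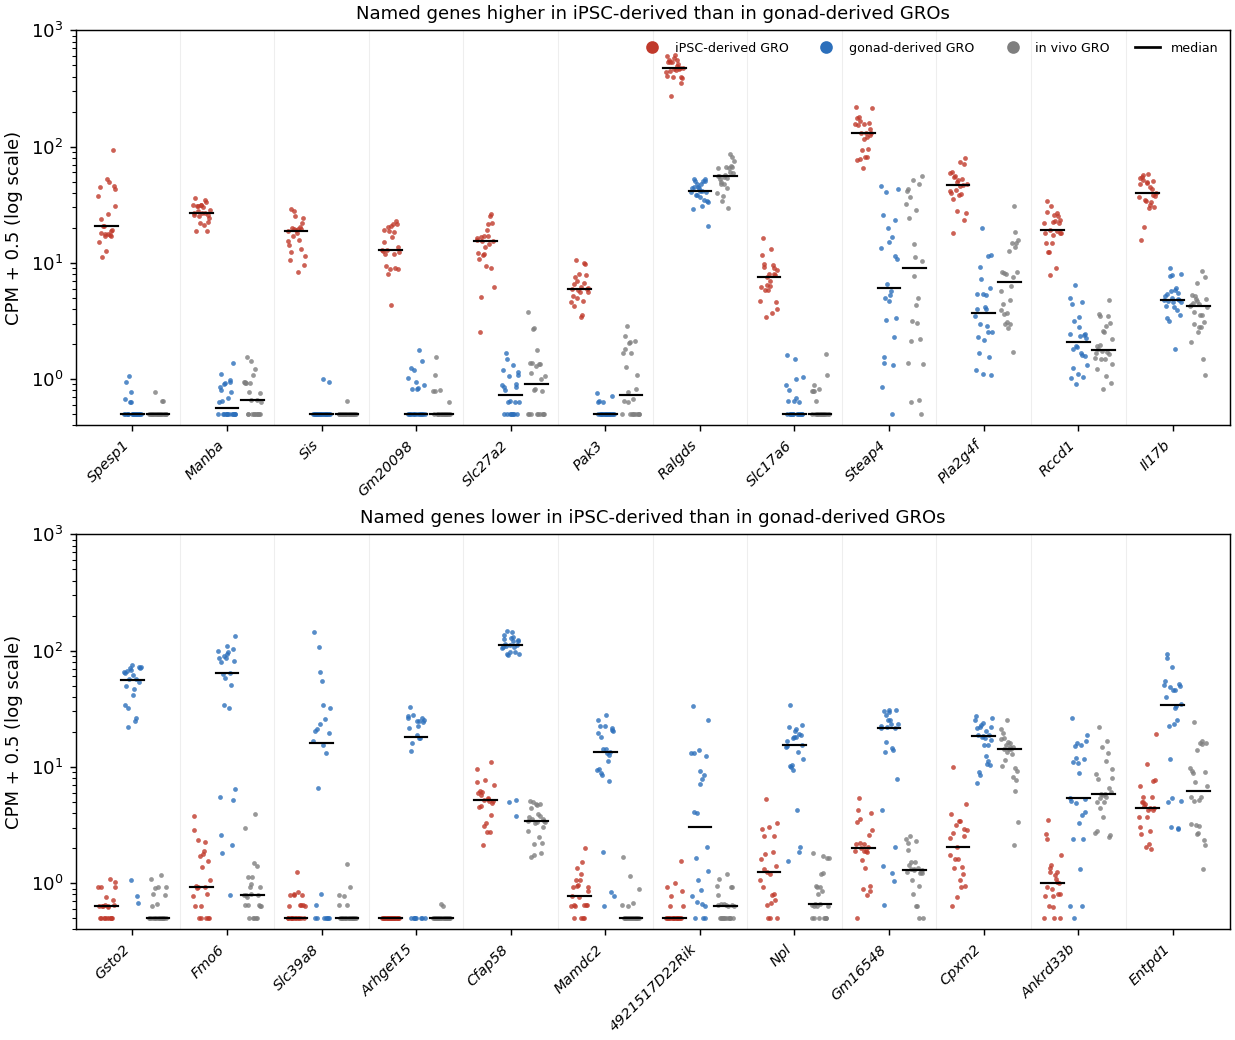
Level of the 24 named genes in each oocyte of the iPSC-derived (red), gonad-derived (blue) and in vivo (grey) GROs, in CPM + 0.5 on a log axis, with the median of each group as a black bar. Red points lie above blue ones in the upper panel with an exception for Pla2g4f, whereas in the lower panel blue points spread from the red level upwards.

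The in vivo level was also compared over all genes past 4-fold, again with 0.5 CPM added to each level. Genes near zero in both groups therefore count as within 2-fold, such as Sis (0.00618 CPM in vivo, 0.0318 CPM in gonad-derived GROs). Of the 45 higher genes, 40 had in vivo levels within 2-fold of the gonad-derived level only, 2 of the iPSC-derived level only and 3 of neither. Of the 30 lower genes, 20 had in vivo levels within 2-fold of the iPSC-derived level only, 8 of the gonad-derived level only and 2 of neither. With the limit at 2-fold, in vivo levels were near the gonad-derived level only for 171 of 266 higher genes and near the iPSC-derived level only for 16. Among 235 lower genes the numbers were 71 and 88. The in vivo GROs entered the filter but not the ratio.

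Complete separation of the oocytes was found in few genes and mostly in one direction. In 42 genes (0.313% of those tested) every iPSC-derived oocyte was above every gonad-derived oocyte, and in 7 genes (0.0522%) every gonad-derived oocyte was above every iPSC-derived one. The genes lay on 16 and 7 chromosomes, respectively. Without iPSC-derived oocyte 8, which the study left out of its own comparison, the second number was 12, while leaving out any single oocyte gave 42 to 48 for the first. Of the 42 genes, 21 differed less than 4-fold and 7 less than 2-fold, so separation did not require a large ratio.

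Lyplal1, a lysophospholipase-like protein, was the clearest case on the lower side. Its level was 25.7 CPM (20.1 to 33.6) in iPSC-derived GROs against 152 CPM (105 to 227) in gonad-derived GROs, and in vivo GROs had 151 CPM. The other genes of this kind were Kcnk18, a tandem-pore potassium channel (38.0 against 113 CPM), the zinc finger gene Zfp111 (32.3 against 70.4 CPM), the receptor gene Gpr180 (135 against 244 CPM) and the predicted genes Gm2560, Gm11545 and Gm19299. In Gm19299 the groups were nearly contiguous, since the lowest gonad-derived oocyte had 31.2 CPM and the highest iPSC-derived one 30.1 CPM.

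On the higher side, separated genes below 4-fold included several of high level. Mcub, the inhibitory subunit of the mitochondrial calcium uniporter, was at 161 against 49.9 CPM. The RNA helicase gene Ddx19a was at 251 against 85.1 CPM and its neighbour and close copy Ddx19b at 40.1 against 19.8 CPM, and both levels are uncertain where the copies share sequence, since reads that fit both were not counted. Hps5, a subunit of a complex that sorts cargo to lysosome-related organelles, was at 73.6 against 27.5 CPM. Trip4, a transcriptional coactivator, was at 186 against 86.6 CPM. The smallest separated differences were those of Acp6, a mitochondrial phosphatase (187 against 120 CPM, log2 ratio 0.64), and Pcid2, a protein of mRNA export (265 against 169 CPM, 0.65).

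The later stage gave values from other oocytes of both sources, although the cultures behind them are not given and the iPSC-derived FGOs came from the same line. Of 41 separated higher genes tested in FGOs, 40 were higher in iPSC-derived FGOs (41.4% of all genes tested at both stages), 28 at least 2-fold, and 18 were again without overlap, against 38 genes without overlap in this direction among 12916 tested at both stages. All 7 separated lower genes were lower in iPSC-derived FGOs, 5 at least 2-fold and 3 without overlap, against 25 genes overall. Over all 13582 genes tested in FGOs, 2.19% were at least 2-fold higher and 3.74% at least 2-fold lower.

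All 12 named higher genes were also higher in iPSC-derived FGOs by 2-fold or more, with log2 ratios from 1.45 to 5.32. Spesp1 was at 21.2 against 0.0431 CPM in FGOs, close to its GRO levels. Manba was at 5.80 against 0.314 CPM and Sis at 2.76 CPM against 0 reads, so both were lower in iPSC-derived FGOs than in iPSC-derived GROs by value. Lyplal1 had a log2 ratio of -2.61 in FGOs against -2.55 in GROs. Of the 12 named lower genes, 11 were at least 2-fold lower in FGOs, and Gm16548, with 26.9 against 25.8 CPM, was not.

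Among gonad-derived GROs, several genes fell into an upper and a lower set of oocytes with nothing in between. A gap was counted where at least 3 oocytes lay on each side of a step of at least 4-fold in a gene of at least 5 CPM. Such gaps occurred in 20 of 8785 genes (0.228%) in gonad-derived, 3 of 8797 genes (0.0341%) in iPSC-derived and 1 of 8849 genes (0.0113%) in in vivo GROs. Spread over all genes was of similar size, with a median coefficient of variation of 0.186, 0.188 and 0.214 over 7032 genes in the same order. Without iPSC-derived oocyte 5 the iPSC-derived number was 1. The 3 iPSC-derived genes were Defb41, 1700048O20Rik and Cldn34d, and the in vivo gene was Sohlh1.

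Pnpla3, a lipid droplet protein with lipase activity, was the most abundant gene with a gap. Its level was at least 459 CPM in 16 gonad-derived oocytes and at most 9.03 CPM in the other 8. All 23 iPSC-derived GROs lay in the upper range, and all 24 in vivo GROs in the lower. Bfsp1, an intermediate filament protein of the lens, had at least 71.5 CPM in 8 gonad-derived oocytes and at most 0.369 CPM in the other 16, and Pxdn, a peroxidase of the basement membrane, had at least 22.2 CPM in 17 and at most 0.303 CPM in 7. Mtfr2, a regulator of mitochondrial fission, was at or above 369 CPM in 11 oocytes and at or below 55.5 CPM in 13.

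The iPSC-derived oocytes were never on both sides of these gaps. In 12 of the 20 genes no iPSC-derived GRO was in the lower range, and in 4 of them, Pdgfrl, Prr15l, Pxdn and Pnpla3, all 23 were in the upper range. In the other 8 genes, Fmo6, Slc39a8, Nlrp5-ps, Arhgef15, Tuba1a, Gsto2, Cfap58 and Mamdc2, no iPSC-derived GRO was in the upper range. No in vivo GRO was in the upper range of any of the 20 genes. The ranges were set from the gonad-derived oocytes alone, and oocytes of other groups that fell within the step were counted in neither range. Ratios of pooled levels therefore depend for these genes on how many gonad-derived oocytes of each kind were sampled.

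**Figure D3:**
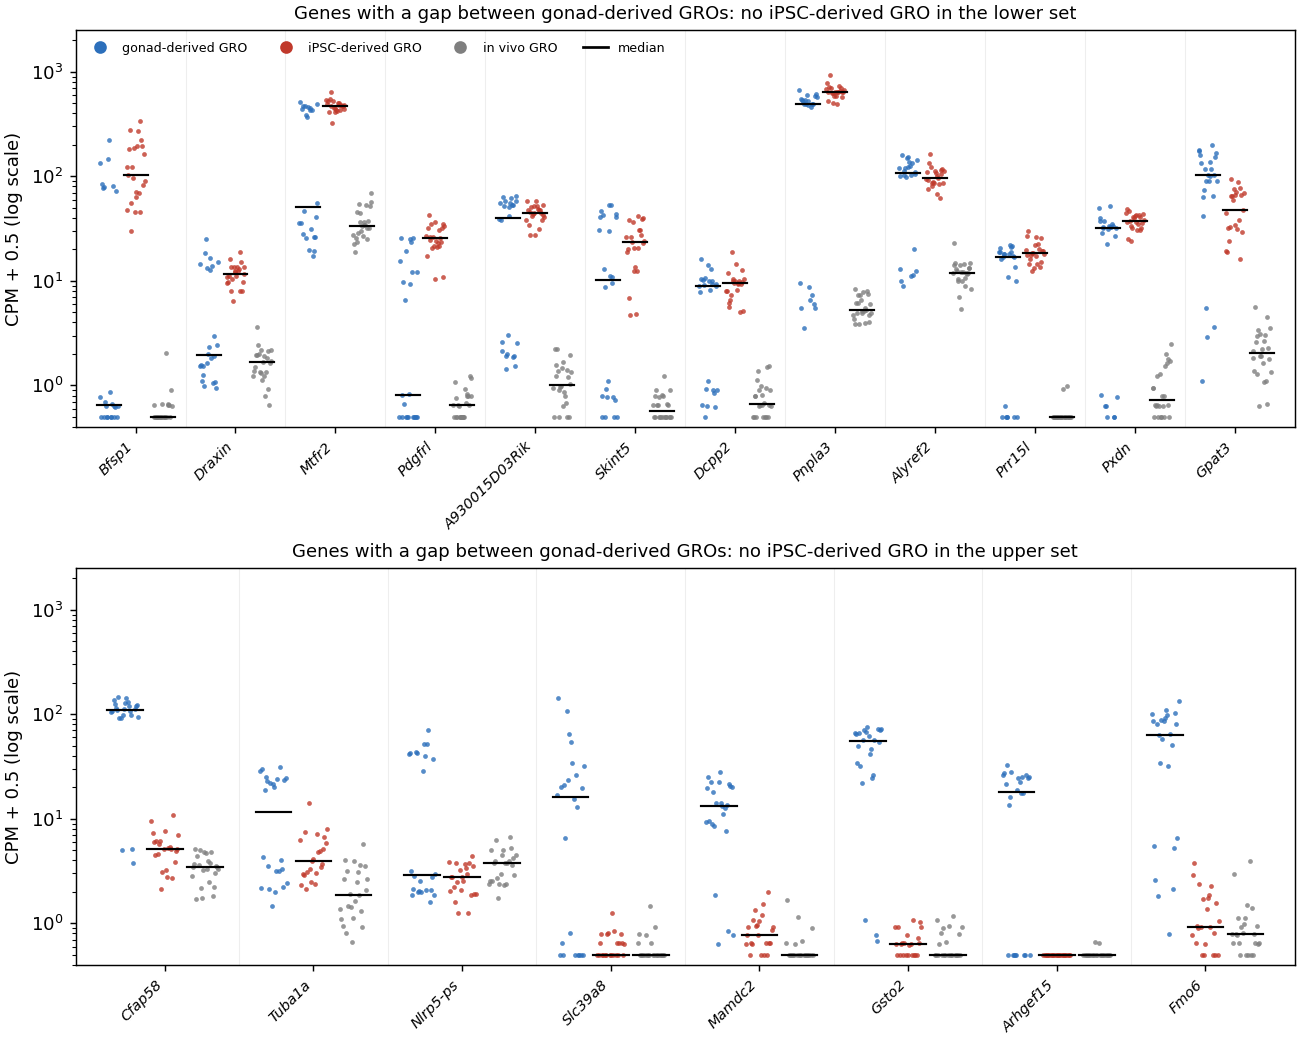
Level in each oocyte of the 20 genes with a gap between gonad-derived GROs, in CPM + 0.5 on a log axis, for gonad-derived (blue), iPSC-derived (red) and in vivo (grey) GROs, with medians as black bars. Blue points form an upper and a lower set, red points lie outside the lower set in the upper panel and outside the upper set in the lower panel, and no grey point reaches an upper set.

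The same ranges were applied to FGOs, in which gaps were not counted. Gonad-derived FGOs were in the upper range in at least 1 oocyte for 17 of the 20 genes and in both ranges for 15. For Pnpla3, 5 gonad-derived FGOs were in the upper range and 19 in the lower, while 21 iPSC-derived FGOs were in the upper range, 3 in between and 0 in the lower. For Bfsp1, all 24 iPSC-derived FGOs were in the upper range, against 5 of 24 gonad-derived FGOs. For Arhgef15 all 24 iPSC-derived FGOs were in the lower range, against 15 of 24 gonad-derived FGOs. For Cfap58, 1 gonad-derived FGO was in the upper range, 23 in between and 0 in the lower, and for Tuba1a the numbers were 7, 17 and 0. For 3 genes, Pxdn, Tuba1a and Mamdc2, iPSC-derived FGOs were found in both ranges. The ranges were not adjusted to the level of FGOs.

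The same oocytes recurred on one side of several gaps. Alyref2, an RNA export factor, and Fmo6 had the same 7 gonad-derived oocytes in the lower set (oocytes 3, 4, 6, 16, 19, 20 and 23) and both lie on chromosome 1. Gsto2 and Cfap58, which lie 51.4 kb apart on chromosome 19, had the same 3 oocytes in the lower set (oocytes 10, 19 and 20). Skint5 on chromosome 4 and A930015D03Rik on chromosome 17 also shared their lower set of 10 oocytes. Pnpla3 and Tuba1a, both on chromosome 15, had lower sets of 8 and 12 oocytes, and the 8 were all among the 12. Genes of the same chromosome did not always share their lower set. On chromosome 19, Mamdc2 was low in oocytes 9, 11, 20 and 24, of which only oocyte 20 was low in Gsto2. Gonad-derived oocyte 20 was in the lower set of all 20 genes. Over the 20 genes, the 24 oocytes showed only 10 different combinations of upper and lower sides. Oocytes 1, 7, 13, 18 and 22 shared one combination, oocytes 2, 8, 14, 15 and 17 another, oocytes 3, 6, 16 and 23 a further one, as did oocytes 9, 11 and 24, and oocytes 5 and 12. The other 5 oocytes each had their own. Of the 19 oocytes sharing a combination, 12 had one of the same combination as their most similar gonad-derived oocyte over the remaining 13402 genes, whereas on average 13.7% of the other oocytes had the same combination. The labels do not give the embryo from which each oocyte came, and its part in these combinations was not tested.

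**Figure D4:**
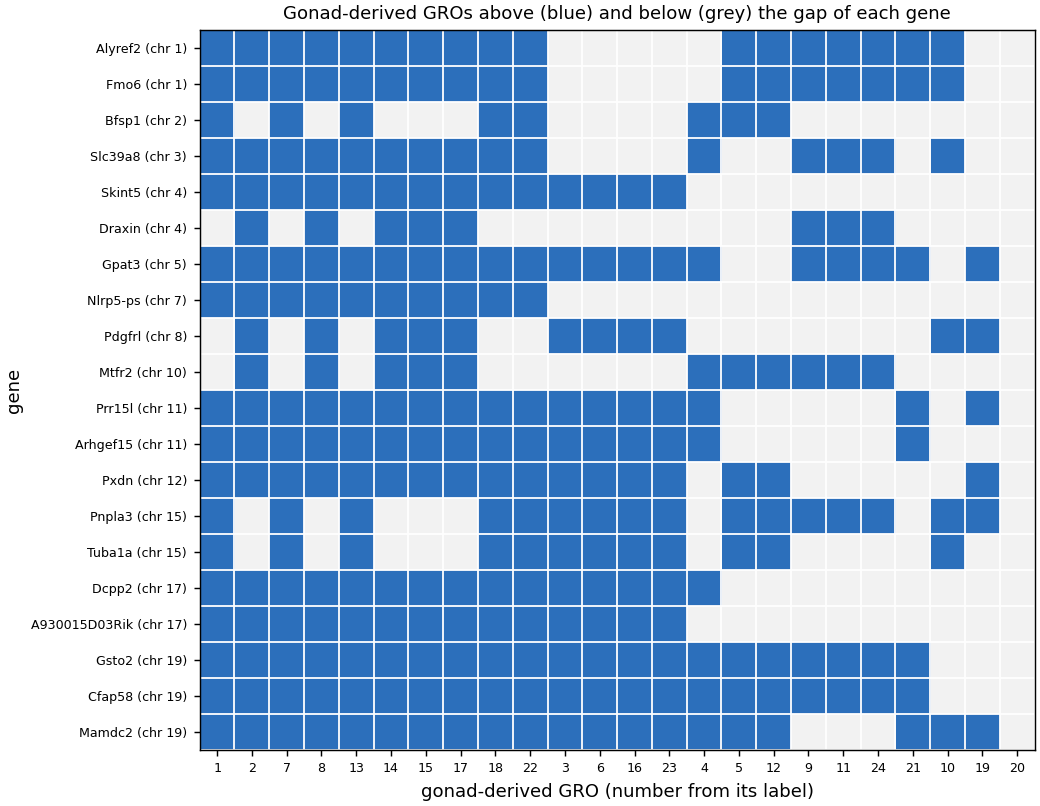
Side of the gap (blue above, grey below) on which each of the 24 gonad-derived GROs (columns, numbered as in the labels) lay for each of the 20 genes (rows, with chromosome). Oocyte 20 is grey throughout, and blocks of columns have the same pattern.

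The promoter windows of Gsto2 and Cfap58 are shown because these neighbours had the same oocytes in the lower set. They were read from RefSeq on GRCm38.p6, from 250 bases before to 50 bases after a listed transcript start (for Gsto2 the first of its listed starts, which lies inside the bounds of the gene given above), 5′ to 3′ on the plus strand, with CG dinucleotides in capitals (CG reads the same on both strands). The Gsto2 window (chr19:47865295-47865594) holds 20 CG and the Cfap58 window (chr19:47937462-47937761) holds 22. At least 20 CG are found in 26.8% of all 27025 windows of this length, whose median is 7. Over the genes tested here, of which 78.8% have a window, the median is 19, near the counts of both windows. The count is a description of the windows only.
Gsto2: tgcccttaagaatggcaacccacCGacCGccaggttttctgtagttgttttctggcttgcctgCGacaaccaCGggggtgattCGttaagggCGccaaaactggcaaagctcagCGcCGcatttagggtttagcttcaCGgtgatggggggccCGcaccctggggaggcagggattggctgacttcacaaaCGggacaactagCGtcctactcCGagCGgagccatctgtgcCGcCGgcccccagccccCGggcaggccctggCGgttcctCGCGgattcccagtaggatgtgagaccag
Cfap58: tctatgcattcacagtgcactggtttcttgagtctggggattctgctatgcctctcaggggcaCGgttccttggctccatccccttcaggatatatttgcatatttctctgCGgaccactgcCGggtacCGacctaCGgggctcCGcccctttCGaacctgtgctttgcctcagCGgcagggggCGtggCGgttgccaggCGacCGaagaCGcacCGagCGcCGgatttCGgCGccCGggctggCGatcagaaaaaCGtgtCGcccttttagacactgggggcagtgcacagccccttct

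Genes whose products mark the study's reporters were followed separately. Dppa3, whose reporter Stella-ECFP the iPSC line carries, was at 2996 CPM in iPSC-derived GROs (2204 to 3795) against 1551 CPM in gonad-derived GROs (1191 to 1935), and in vivo GROs had 1694 CPM. Its neighbours within 500 kb had log2 ratios between -0.61 (Rimklb, 35.4 against 54.2 CPM) and 0.29 (Necap1). Prdm1, whose reporter is Blimp1-Venus, was at 26.6 CPM (4.91 to 96.4) against 13.3 CPM (1.32 to 36.9), and its neighbours within 500 kb had log2 ratios between -0.40 (Speer5-ps1) and -0.05 (Atg5). The Prdm1 values overlapped widely. Whether reads of the reporter transgenes were counted to these genes was not tested.

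Of the reprogramming factors, Klf4 alone was separated. Klf4 was at 9.36 CPM in iPSC-derived GROs (5.05 to 14.6) and 2.57 CPM in gonad-derived GROs (0.194 to 4.51), with 3.39 CPM in vivo and a log2 ratio of 1.31 in FGOs. Pou5f1, a pluripotency factor that growing oocytes also express, was at 138 (69.0 to 231) against 126 CPM (87.8 to 212). Sox2 was at 1.00 against 1.13 CPM and Myc at 0.748 against 0.274 CPM, both near the lower end of detection in single oocytes. Nanog had 6 and 5 reads in all. In the list of 16 tested pluripotency genes, 2 were at least 2-fold higher (Klf4 and Zfp42, the latter at 4.16 against 1.75 CPM) and none lower, beside 1.98% and 1.75% over all genes, with a median of 0.15 against -0.0046 over all genes.

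Genes of the germ line were mostly similar. Among 16 tested genes of PGCs, Ifitm3, an interferon-induced membrane protein that marks PGCs, was at least 2-fold lower (20.1 against 42.4 CPM). Over all genes this share was 1.75%. None was 2-fold higher with 0.5 CPM added (1.98% over all genes). Prdm1 (26.6 against 13.3 CPM) and Dppa3 lay just under that limit, at log2 ratios of 0.98 and 0.95. Among 12 oocyte transcription factors, Sohlh2 was at 84.6 CPM (12.8 to 236) against 23.8 CPM (7.05 to 95.4) and its partner Sohlh1 at 18.1 CPM (0 to 76.2) against 6.59 CPM (0.139 to 41.5), and both overlapped widely. The in vivo levels were 20.9 CPM for Sohlh2, near the gonad-derived level, and 18.3 CPM for Sohlh1, near the iPSC-derived level. Figla differed little (137 against 140 CPM).

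None of 25 maternal effect genes, 24 genes of DNA methylation, 32 of the piRNA and small RNA pathways or 29 of cholesterol synthesis differed 2-fold in either direction. In DNA methylation this included Dnmt1 (2236 against 2272 CPM), Uhrf1 (481 against 511 CPM) and Dnmt3l (53.8 against 78.8 CPM). Closest to the limit in the maternal effect and DNA methylation lists was Dppa3, at a log2 ratio of 0.95. Its oocytes did not overlap between the groups, as described above. Of 36 genes of meiotic prophase, 2 were at least 2-fold higher and none lower, beside 1.98% and 1.75% over all genes. Hormad1, a component of the chromosome axis, was at 15.1 CPM (6.34 to 25.96) against 1.99 CPM (0.141 to 3.80) and was separated, whereas Ccnb1ip1, a crossover factor, was at 14.7 (2.95 to 34.99) against 7.07 CPM (0.697 to 26.05). The egg coat genes Zp1, Zp2 and Zp3 had log2 ratios of 0.09, 0.11 and 0.19.

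Glycolysis was the list with the largest median, at 0.46 over 21 genes tested, against -0.0046 over all genes. Of these, 19 had a ratio above 0, compared with 49.4% of all genes tested, and only Ldha passed 2-fold. Ldha, the lactate dehydrogenase subunit of glycolytic tissues, was at 152 CPM (18.9 to 567, median 126) in iPSC-derived against 22.1 CPM (0.146 to 176, median 2.38) in gonad-derived GROs, and at 1.08 CPM in vivo. The distributions overlapped, with 7 of 24 gonad-derived oocytes above the lowest iPSC-derived one. Ldhb, the subunit that prevails in oocytes, was at 5209 against 4925 CPM.

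The remaining steps of the pathway had smaller differences. The glucose transporter gene Slc2a1 was at 327 CPM (241 to 569) against 237 CPM (160 to 383), Tpi1, the triose phosphate isomerase, at 480 CPM (335 to 923) against 247 CPM (92.6 to 496), and Aldoa, the aldolase of most tissues, at 350 CPM (275 to 557) against 233 CPM (171 to 326). In vivo GROs had less of each, at 144, 112 and 203 CPM. Pfkl, a phosphofructokinase subunit, was at 122 against 72.7 CPM and Gpi1, the phosphoglucose isomerase, at 148 against 109 CPM. Pfkm, another phosphofructokinase subunit, was lower by value (15.2 against 17.6 CPM). Gapdh, Pgk1 and Eno1 have many processed pseudogenes and were counted from uniquely placed reads, so that their low levels (18.1 against 9.70 CPM for Gapdh) are uncertain.

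Summed without Ldha and Ldhb, the glycolysis list reached 1277 to 2956 CPM in iPSC-derived GROs (median 1766), 847 to 1712 CPM in gonad-derived GROs (median 1119) and 795 to 1114 CPM in vivo (median 940). All 23 iPSC-derived GROs were above the gonad-derived median, and the ranges overlapped. In FGOs 12 of the 21 genes had a ratio above 0, against 41.4% of all genes tested at both stages, and Ldha had a log2 ratio of 0.83.

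**Figure D5:**
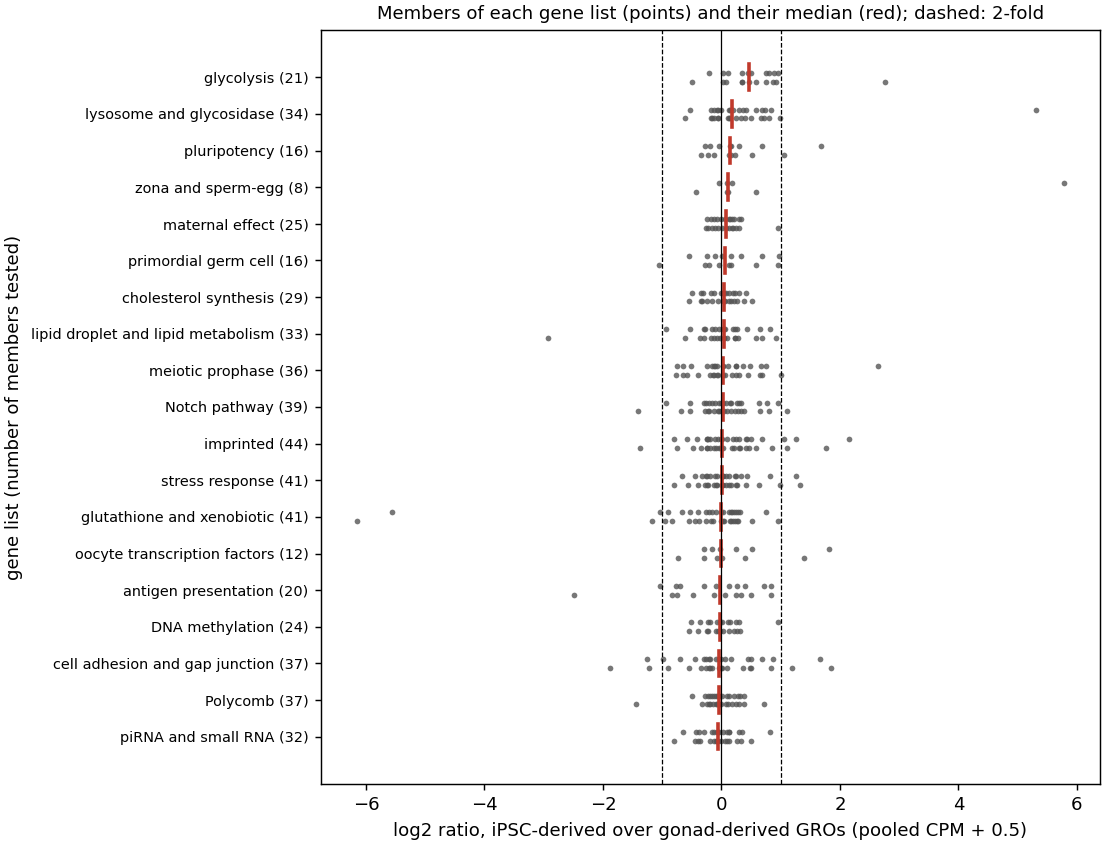
Log2 ratio of pooled CPM + 0.5, iPSC-derived over gonad-derived GROs, of each tested member (points) of 19 gene lists, with the median of each list in red and 2-fold as dashed lines. The glycolysis median of 0.46 is the largest, and single genes such as Spesp1, Manba and Gsto2 lie far outside their lists.

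In other lists, single genes stood out, to be read beside the 1.98% of all genes tested that were 2-fold higher and the 1.75% that were 2-fold lower. Of 41 genes of glutathione and xenobiotic metabolism, 4 were at least 2-fold lower and none higher. Besides Gsto2 and Fmo6, these were Gsta4, a glutathione S-transferase of the alpha class (68.6 against 155 CPM, 218 CPM in vivo), and Fmo4 (0.334 against 1.22 CPM). Of 20 genes of antigen presentation, H2-Aa, a class II histocompatibility chain, was at 6.45 CPM (0.858 to 20.3) against 38.5 CPM (1.65 to 92.6, median 57.3), and Tap2, the peptide transporter 66.4 kb away, at 3.79 against 8.26 CPM. None of this list was 2-fold higher. Thrsp, a regulator of lipogenesis, had 1 read in iPSC-derived GROs and 3.36 CPM in gonad-derived GROs, in which its median was 0 and its highest value 16.0 CPM. It was the only 1 past 2-fold on the list of 33 lipid genes, which did not hold Slc27a2 or Pla2g4f described above.

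Of 44 imprinted genes, 5 were at least 2-fold higher and 1 lower, beside the same 1.98% and 1.75%. Igf2, the growth factor gene expressed from the paternal allele in the embryo, was at 3.83 CPM (0.301 to 13.0) against 0.777 CPM (0 to 2.59). Asb4 was at 31.5 CPM (14.9 to 50.7) against 12.8 CPM (3.02 to 35.1), Ndn at 3.25 against 1.25 CPM and Mcts2 at 4.28 against 1.80 CPM. Gab1, an adaptor of receptor tyrosine kinases, was at 8.63 (0.604 to 33.3) against 1.56 CPM (0.115 to 7.62). The lower gene was Slc22a18, at 0.748 against 2.72 CPM, and the list's median was 0.01. Counts do not separate parental alleles.

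Of 39 Notch pathway genes, the target Hes5 was at 21.1 CPM (2.04 to 49.3) against 9.56 CPM (0.583 to 28.0) and the ligand Dll1 at 0.292 against 1.59 CPM, and the median was 0.02. Of 37 genes of cell adhesion and gap junctions, 3 were at least 2-fold higher and 3 lower, where all genes gave 1.98% and 1.75%. The higher ones were all low in level, namely Cdh6 (3.50 against 0.611 CPM), Cntn5 (5.03 against 1.24 CPM) and Cdh12 (0.833 against 0.0828 CPM). For Cntn5 the iPSC-derived median was 2.54 CPM and the highest oocyte had 27.9 CPM. The lower ones were Itga10 (1.64 against 7.35 CPM), Nrcam (19.9 against 48.2 CPM) and Lsamp (0.249 against 1.25 CPM). Cbx7 was the only 1 of 37 Polycomb genes past 2-fold, at 11.6 (2.06 to 44.2) against 32.2 CPM (5.70 to 66.7).

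Of 41 stress response genes, the immediate early gene Fos (4.01 against 1.30 CPM) and Hmox1, the heme oxygenase induced by oxidative stress (7.14 against 2.69 CPM), were at least 2-fold higher. None was 2-fold lower. Other immediate early genes went both ways, with Ier2 (15.7 against 25.3 CPM) and Junb (3.02 against 4.69 CPM) lower and Jun (0.584 against 0.312 CPM) higher. The Hmox1 level rested on iPSC-derived oocyte 8, with 66.0 CPM, and its log2 ratio of 1.26 was 0.64 without it. Of 34 listed genes of lysosomes and glycosidases, only Manba was 2-fold higher and none was lower. That list did not hold Sis (log2 ratio 5.10) or Ganc (1.08), which also encode glycosidases. Of 8 genes of the zona and sperm-egg interaction, only Spesp1 was 2-fold higher and none was lower.

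The genes past 2-fold were spread over the genome. Chromosome medians lay between -0.04 and 0.07, the latter for the X chromosome (480 genes, of which 14 were 2-fold higher and 5 lower). The X-linked median was smaller with no filter, as given in the last section. The share past 2-fold in either direction ranged from 1.49% on chromosome 10 to 6.95% on chromosome 15. The directions were uneven on several chromosomes, with 8 genes higher and 21 lower on chromosome 1, 2 and 13 on chromosome 19, 17 and 8 on chromosome 8, and 24 and 14 on chromosome 15. Another 2-fold higher gene lay within 1000 kb of 40.2% of the higher genes (107 of 266), against 28.3% of other genes. For the lower genes the shares were 28.5% (67 of 235) and 24.8%. A 2-fold lower gene lay within that distance of 21.8% of the higher genes, against 24.8% of other genes. Conversely, a 2-fold higher gene lay that near to 21.3% of the lower genes (50 of 235), against 28.3% of other genes.

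Some neighbours differed in the same direction. Pla2g4f lies 54.3 kb from Pla2g4e (71.9 against 17.8 CPM), 41.1 kb from Tmem87a (log2 ratio 1.46) and 89.7 kb from Ganc (1.08). Ldha lies 46.2 kb from Hps5 (1.40), 170 kb from Tph1 (1.77) and 222 kb from Ptpn5 (2.89). Rccd1 lies 53.1 kb from Fes (2.16) and 18.4 kb from Hddc3 (1.32). Other neighbours differed in opposite directions, among them Mettl7a1 (2.36) and its copy Mettl7a3 (-1.03) 4.80 kb apart, Slc17a6 (3.48) and Ano5 (-1.19) 23.1 kb apart, and Manba (5.31) and Slc39a8 (-5.36) 245 kb apart.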

How the data were processed

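Single oocytes were sequenced as single-end Smart-seq2 libraries. Following the labels and the study's methods, the authors aligned reads with STAR to GRCm38 with ERCC spike-ins, placed reads with many matches at random, and counted uniquely assigned reads per gene on 1 transcript chosen at random. The deposited table holds these raw read counts for 21950 genes, and a column with the exonic length, another value given by the authors, which served only for levels per length. No deposited value had been normalized. Whether counting used strand is not stated. Of the gene identifiers, 21907 were matched to RefSeq (GRCm38.p6). All oocytes were used, also those the study left out.

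Counts were divided by the library total (CPM) and pooled over the oocytes of a group. Ratios used a pseudocount of 0.5 CPM and genes above 1 CPM in at least 3 of 71 GROs. The labels name no animal or culture, so no model was fitted over oocytes. Named genes were, in each direction, the 12 of largest log2 ratio with at least 5 CPM in the higher group that were also 4-fold apart by medians and without any single oocyte, and list members at least 2-fold apart, genes within 500 kb of Dppa3 and Prdm1, and the reprogramming factors. Other named genes (those without overlap between groups, those with a gap, and neighbours) were chosen after their values were seen. Members and lists were chosen with earlier results of these data known. Promoter windows were found for under 80% of the genes in 3 of the 4 sets past 2-fold and 4-fold, so a comparison of promoter composition was void and is not given.

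Alternatives were other pseudocounts (0.1 and 2 CPM), filters, scalings (edgeR 4.0.16 TMM factors, DESeq2 1.42.0 size factors), summaries over oocytes, and leaving out each oocyte. The computation was tested on simulated counts. Python 3.11.15 with numpy 2.4.6, pandas 2.3.3 and scipy 1.17.1, and R 4.3.3 were used.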

Additional observations from a re-analysis of the deposited data

How the results depend on the processing

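With 0.1 CPM added in place of 0.5 CPM, 92 genes were 4-fold higher and 56 lower in iPSC-derived GROs, and 481 and 379 passed 2-fold. With 2 CPM added, these numbers were 18, 17, 123 and 136. Restricted to genes above 1 CPM in at least 36 of 71 GROs, they were 22, 18 and 163, with 184 genes 2-fold lower, and 13 genes had a gap between gonad-derived GROs. With a gap of at least 8-fold, a limit chosen after seeing the data, 10 genes had one between gonad-derived and 0 between iPSC-derived GROs. The median of X-linked genes was 0.0495 with 2 CPM added, 0.0174 with no filter and 0.05201 for the mean of log2 levels. No filter, TMM, DESeq2 size factors, medians and unweighted means left the numbers of genes within 1.5 times. Leaving out each oocyte gave 41 to 50 and 29 to 36 genes past 4-fold, 235 to 284 and 223 to 257 past 2-fold, 42 to 48 and 7 to 12 without overlap (12 without iPSC-derived oocyte 8), 18 to 23 gaps between gonad-derived and 1 to 4 between iPSC-derived GROs (1 without iPSC-derived oocyte 5), and medians of -0.0127 to -0.000611 over all genes and 0.0580 to 0.0794 over X-linked genes. The 24 named genes stayed 4-fold apart in the same direction under every alternative, except Pak3 (1.96) and Ankrd33b (-1.87) with 2 CPM added. The glycolysis median lay between 0.34 and 0.51. No paired analysis was possible because oocyte numbers are arbitrary labels and no test was run. Depth limits genes near 3 reads in a group.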
